A study of Mus musculus with 7 samples.

Results

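The transforming growth factor β (TGF-β) and activin genes examined here were 10: the ligands Tgfb1, Tgfb2, Tgfb3, Inhba, Inhbb and Bmp4, the receptors Tgfbr1, Tgfbr2 and Tgfbr3, and the activin antagonist Fst. They were chosen by name, and their probes were found through the RefSeq accession given for each gene probe on CodeLink Mouse Whole Genome arrays, 1-colour oligonucleotide arrays. Of the 10 genes, 8 had a probe named in this way, among 13971 genes so named, and no probe was named for Tgfbr1 or Inhbb. The 8 genes had 9 probes, because Tgfbr2 had 2, and 7 of the 8 genes had a good spot on all 7 arrays.

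TGF-β ligands are secreted in a latent form bound to matrix proteins and, once released, bring type II and type I receptors together, which phosphorylate SMAD proteins that enter the nucleus and act on transcription. Activins, which are dimers of inhibin β subunits, use receptors of their own but the same SMADs, whereas bone morphogenetic proteins (BMPs) use another group of SMADs. In the mammary gland, TGF-β is known as a restraint on ductal growth and as a factor in the loss of epithelium during involution, and follistatin binds activin and keeps it from its receptors.

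Mammary glands of 4-week-old female mice were grown in organ culture (MMOC), first for 10 days with insulin, prolactin, aldosterone and hydrocortisone, and then for 14 days with insulin alone. The 7 arrays formed 7 groups of 1 array: αERKO (ESR1 KO) glands at 24 days, glands labelled βERKO (ESR2 KO) at 24 days, WT C57 glands at 24 days with DMBA, WT C57 glands at 10 days without DMBA, WT C57 glands at 24 days without DMBA, BALB/c glands at 24 days, and BALB/c glands at 24 days with vitamin D5. DMBA (7,12-dimethylbenz[a]anthracene), a carcinogen, was given at 2 µg/ml for 24 h on day 3. The protocol gives DMBA for the αERKO and βERKO cultures and for the WT culture with DMBA. However, the titles of the αERKO and βERKO samples do not name it. Neither DMBA nor a dose of vitamin D5 is named for the BALB/c samples. The labels give every group the same text on pretreatment of the mice. It names both 1 µg estrogen with 1 mg progesterone for 9 days and 25 ng EGF with 1 mg progesterone for 5 days. It does not say which mice received which. The paper states that the αERKO, βERKO and WT glands it compared on arrays came from mice given EGF with progesterone. Both knockouts were on a C57BL6/129SV background and the WT mice were C57, so that genotype and strain background cannot be told apart. The paper states that the WT and βERKO glands on these arrays held preneoplastic mammary alveolar lesions (MAL) and that the αERKO glands held none. Genotype and lesions thus cannot be told apart in the αERKO comparisons. In the WT glands with DMBA, exposure and lesions cannot be told apart either. For the αERKO and βERKO groups and the WT group with DMBA, equal amounts of RNA from 5 mice were pooled on 1 array. No pool size is given for the other groups. With 1 array per group no test was possible, and no p-value is given.

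Levels are given as the log2 of a spot's intensity over the median intensity of the 34967 gene probes of its array, so that 0 is the median probe. Between 68.4% and 74.2% of gene probes were called good by the scanner software on the 7 arrays. The Esr1 probe was near background on the αERKO array, but also on 4 others (the array labelled βERKO, both WT arrays without DMBA and BALB/c without vitamin D5), so that it was a weak check of the label. The Esr2 probe did not bear out the other label, being brightest on the array labelled βERKO, at 0.87. It was good elsewhere only on the WT 24-day array, at -0.55. No probe sequence was at hand, so a wrong label cannot be told apart from a probe outside the deleted part of Esr2. Keratin genes of mammary epithelium (Krt8, Krt18, Krt14 and Krt5) were good on all 7 arrays, whereas Csn2, which encodes β-casein, was near background for αERKO, for BALB/c without vitamin D5 and on the array labelled βERKO. The αERKO array stood apart: its summed level of 7 skeletal muscle genes was 1865, against 7.81 to 50.3 on the other 6 arrays. Whole glands were measured, and fewer cells of a type cannot be told apart from less RNA per cell.

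As a measure of probe error, there being no replicates, the SD of the log2 ratio between probes of the same accession was taken for each pair of arrays. Such probes are read on the same arrays, so this SD does not measure variation between mice, pools, cultures or hybridizations. A difference beyond it may still lie within that variation. This SD was between 0.56 and 0.67 for pairs with the αERKO array and between 0.19 and 0.45 for all other pairs. A difference is called over 2-fold where the spot was good on both arrays and the ratio passed 2, or where it was good on 1 array and the lower bound of the ratio passed 2.

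Inhba encodes the inhibin βA subunit, which forms activin A. Its log2 level was -0.07 for αERKO, 3.19 for the array labelled βERKO, 0.46 for WT with DMBA, 2.50 for WT at 10 days, 1.41 for WT at 24 days, 1.99 for BALB/c and 2.39 for BALB/c with vitamin D5. Inhba was thus lowest in αERKO glands and highest in glands labelled βERKO, a range of 3.26 on the log2 scale. In the order of its levels, 4 of 6 steps between neighbours were larger than the SD between same-accession probes, the exceptions being αERKO against WT with DMBA and WT at 10 days against BALB/c with vitamin D5.

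Fst encodes follistatin. Its log2 level was 0.06 for αERKO, 2.23 for the array labelled βERKO, 1.23 for WT with DMBA, 3.04 for WT at 10 days, 1.59 for WT at 24 days, 1.91 for BALB/c and 1.67 for BALB/c with vitamin D5. Fst was again lowest in αERKO glands, followed by WT glands with DMBA, but its highest level was in WT glands at 10 days. Of its 6 steps, 4 were beyond the SD, and the largest was the 1.16 between the WT array with DMBA and the αERKO array.

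Inhba and Fst, a ligand subunit and its antagonist, were lowest on the same pair of arrays. Over the 7 arrays the Pearson r of their log2 levels was 0.84 and Spearman's rho was 0.93, and r was 0.50 over the 5 arrays left without the αERKO array and the WT array with DMBA. Krt14 and Krt5, keratins of basal epithelium, had their lowest levels on those arrays too, at 2.77 and 5.16 on the αERKO array and 5.19 and 6.43 on the WT array with DMBA, against at least 6.48 for Krt14 and at least 7.07 for Krt5 elsewhere. Other genes of basal cells did not share this order. Acta2 and Myh11, contractile genes that form the myoepithelial list with Krt14, had their highest levels on the WT array with DMBA, at 6.68 and 5.00, and on the αERKO array Myh11 was next highest, at 4.62, and Acta2 was at 5.10. The r of Inhba with Krt14 was 0.83 over 7 arrays and 0.12 without that pair of arrays. All these values share arrays and scaling and are given as a description. Among the 8 epithelial genes measured, 7 were good on the αERKO array, with a summed level of 310.0 there, 548 on the WT array with DMBA and between 761 and 1437 on the other 5 arrays. The part of this list in the levels of Inhba and Fst was not tested.

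**Figure D1:**
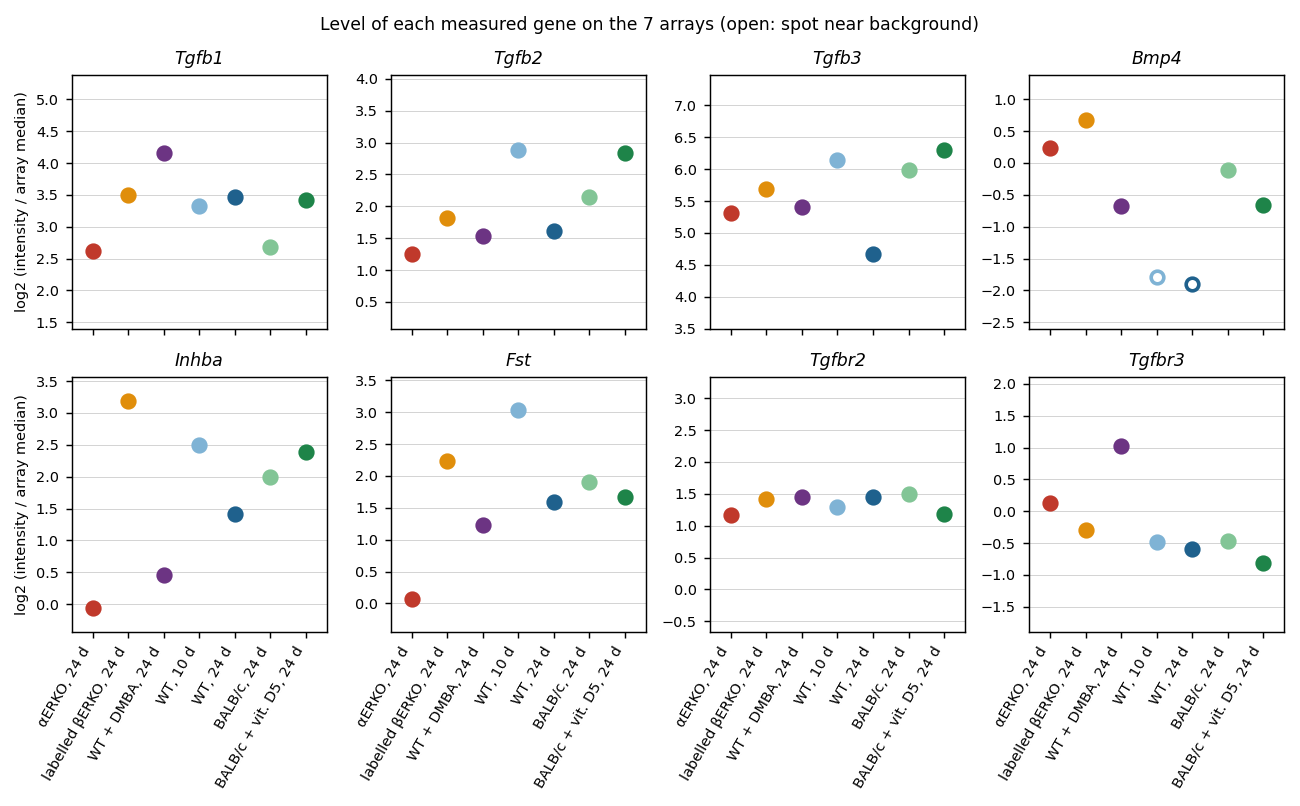
Log2 level (intensity over the array's median gene probe) of the 8 measured genes on each of the 7 arrays, 1 point per array, with every panel spanning the same range. Filled points are good spots and open points are spots near background, which were the Bmp4 spots of the WT 10-day and 24-day arrays; Inhba and Fst were lowest on the αERKO array, and Tgfbr2 spanned 0.33.

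**Figure D2:**
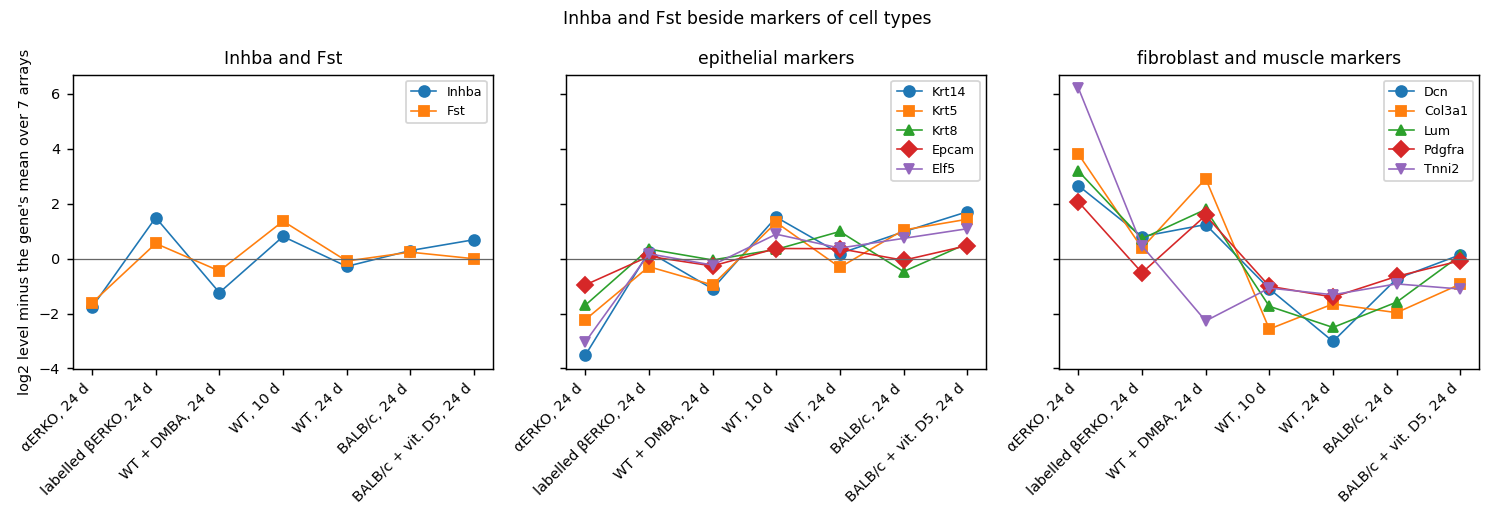
Log2 levels of Inhba and Fst (left), 5 epithelial genes (middle), and 4 fibroblast genes with the skeletal muscle gene Tnni2 (right), each minus the gene's own mean over the 7 arrays, with lines joining arrays only to guide the eye. Inhba, Fst and the 5 epithelial genes were lowest on the αERKO array, whereas Tnni2, Dcn, Col3a1, Lum and Pdgfra were highest there. Of the listed fibroblast genes not drawn, Col1a1 was highest there too, at 0.40. Col1a2 was highest on the WT array with DMBA, at 1.35 against 1.16 on the αERKO array.

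The TGF-β ligand genes did not share 1 pattern. Tgfb1, the most studied isoform, had log2 levels of 2.63 for αERKO, 3.50 for the array labelled βERKO, 4.15 for WT with DMBA, 3.33 for WT at 10 days, 3.47 for WT at 24 days, 2.68 for BALB/c and 3.42 for BALB/c with vitamin D5. It was highest in WT glands with DMBA, and it was lowest, at levels within the SD of each other, in αERKO and BALB/c glands. The 4 arrays between these extremes lay from 3.33 to 3.50, with every step between neighbours among them within the SD.

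Tgfb2 had log2 levels of 1.25 for αERKO, 1.82 for the array labelled βERKO, 1.53 for WT with DMBA, 2.89 for WT at 10 days, 1.61 for WT at 24 days, 2.15 for BALB/c and 2.84 for BALB/c with vitamin D5. Its only step beyond the SD between neighbours parted WT at 10 days and BALB/c with vitamin D5 from the other 5 arrays. Tgfb3 had log2 levels of 5.31 for αERKO, 5.69 for the array labelled βERKO, 5.41 for WT with DMBA, 6.14 for WT at 10 days, 4.67 for WT at 24 days, 5.99 for BALB/c and 6.30 for BALB/c with vitamin D5. None of its 6 steps was beyond the SD, although the ends of the order, BALB/c with vitamin D5 and WT at 24 days, were 1.62 apart. Tgfb2 and Tgfb3 were both highest in WT glands at 10 days and in BALB/c glands with vitamin D5, and the r of their levels was 0.82 over 7 arrays and 0.61 without that pair of arrays.

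Bmp4, a ligand of the BMP branch that stromal cells often secrete, was not detected on every array. Its log2 level was 0.24 for αERKO, 0.67 for the array labelled βERKO, -0.68 for WT with DMBA, -0.11 for BALB/c and -0.65 for BALB/c with vitamin D5, and its spots of -1.78 on the WT 10-day array and -1.90 on the WT 24-day array were near background. The spot was therefore good on 5 of 7 arrays, and it was good in neither group of WT glands cultured without DMBA.

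Of the receptors, Tgfbr2 encodes the type II receptor that binds TGF-β ligands first. Its brighter probe gave log2 levels of 1.17 for αERKO, 1.42 for the array labelled βERKO, 1.44 for WT with DMBA, 1.30 for WT at 10 days, 1.45 for WT at 24 days, 1.499 for BALB/c and 1.18 for BALB/c with vitamin D5. The whole range was 0.33, and no step between neighbours was beyond the SD. The other Tgfbr2 probe, designed against another accession of the gene, varied more, being near background on the αERKO array, at -1.46, and between -0.90 and 0.07 on the other 6 arrays. The Tgfbr2 probes thus disagreed on the αERKO array. They also disagreed on the BALB/c arrays. Without vitamin D5 the brighter probe had its highest level of the 7 arrays and the other probe its lowest good level, -0.90. With vitamin D5 the brighter probe was lower, at 1.18, and the other probe higher, at -0.51.

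Tgfbr3 encodes betaglycan, a co-receptor that presents TGF-β2 to the signaling receptors and also binds inhibin. Its log2 level was 0.13 for αERKO, -0.29 for the array labelled βERKO, 1.02 for WT with DMBA, -0.48 for WT at 10 days, -0.60 for WT at 24 days, -0.47 for BALB/c and -0.81 for BALB/c with vitamin D5. The WT array with DMBA stood above all others, and this step, of 0.90, was the only one beyond the SD.

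The comparison of times in culture was the one in which 4 of these genes passed 2-fold in the same direction. Between 10 and 24 days of culture without DMBA, WT glands came to lower levels of 3 ligand genes and of Fst. The days after day 10 were on insulin alone, so time in culture and withdrawal of the other hormones cannot be told apart. Tgfb2 was 2.42-fold lower at 24 days, with a log2 ratio of -1.28. Tgfb3 was 2.77-fold lower, with a log2 ratio of -1.47. Inhba was 2.13-fold lower, at -1.09, and Fst was 2.73-fold lower, at -1.45. All 4 differences were over 4 times as large as the SD between same-accession probes, which was 0.23 for this pair of arrays. Tgfb1, with a log2 ratio of 0.14, Tgfbr2, with 0.15, and Tgfbr3, with -0.12, stayed within this SD, and Bmp4 was near background on both arrays.

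Of the 7 genes tested, 4 were thus lower by more than 2-fold and 0 higher, where 6.63% of all 11887 genes tested passed 2-fold, 3.74% higher and 2.89% lower. The median log2 ratio of the 7 genes was -1.09, against 0.15 over all genes good on both arrays. The call for Inhba did not hold with normexp background correction, which gave a log2 ratio of -0.85, and none of the 4 genes passed 3-fold. The epithelial list, with 8 of 8 measured genes good on both arrays, had a summed level of 1319 at 10 days and 974 at 24 days, but its members went both ways. Krt14 moved from 7.80 to 6.48, Krt5 from 8.71 to 7.07 and Elf5 from 5.81 to 5.31, whereas Krt8 moved from 4.99 to 5.64, Krt18 from 8.48 to 8.59 and the milk protein gene Csn2 from -1.34 to 5.39. Epcam, at 7.62 and 7.61, and Cdh1, at 5.20 on both arrays, lay level. Over the same time the adipocyte list, with 5 of 5 measured genes good on both arrays, moved from 449 to 1158. The part of these lists in the 4 differences was not tested.

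The promoters of Inhba and Tgfb2, which moved together over this time, and of Tgfb1, which did not, are shown as the 250 bases before the annotated start in RefSeq's GRCm38.p6. Promoters were listed for Tgfb1, Tgfb2, Inhba, Inhbb, Bmp4, Tgfbr1 and Tgfbr2. They were searched on both strands for the SMAD-binding core CAGAC, which reads GTCTG on the other strand, and for GGTCA, the half-site of the estrogen response element, which reads TGACC there. They were also searched for the full estrogen response element, an inverted repeat of this half-site with any 3 bases between, and for the AP-1 site TGANTCA. A SMAD core and a half-site can share bases, whereas an AP-1 site and a half-site cannot. Capitals mark SMAD cores and half-sites. The positions are Inhba at chr13:16011601-16011850 on the plus strand, Tgfb2 at chr1:186705990-186706239 on the minus strand and Tgfb1 at chr7:25686752-25687001 on the plus strand, each written 5′ to 3′ along the gene.
Inhba: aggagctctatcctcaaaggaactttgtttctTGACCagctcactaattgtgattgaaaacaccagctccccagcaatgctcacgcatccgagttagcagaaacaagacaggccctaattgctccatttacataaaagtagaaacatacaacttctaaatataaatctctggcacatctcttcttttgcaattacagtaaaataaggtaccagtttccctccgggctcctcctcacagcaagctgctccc
Tgfb2: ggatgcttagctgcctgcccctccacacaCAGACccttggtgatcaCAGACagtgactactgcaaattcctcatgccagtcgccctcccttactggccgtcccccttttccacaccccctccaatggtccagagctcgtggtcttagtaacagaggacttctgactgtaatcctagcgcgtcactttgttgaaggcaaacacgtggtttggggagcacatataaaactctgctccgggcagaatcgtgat
Tgfb1: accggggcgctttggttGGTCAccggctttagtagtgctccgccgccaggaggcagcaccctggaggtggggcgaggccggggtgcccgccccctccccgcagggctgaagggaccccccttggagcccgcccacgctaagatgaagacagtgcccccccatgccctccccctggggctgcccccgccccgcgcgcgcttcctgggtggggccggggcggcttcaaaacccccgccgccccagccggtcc

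The Tgfb2 window held 2 SMAD cores, with first bases at -221 and -204 from the start, and no half-site. The Inhba window held 1 half-site at -218, the Tgfb1 window held 1 at -233, and neither held a SMAD core. None of these 3 windows held a full estrogen response element or an AP-1 site. Among 32851 promoter windows of the same length, 42.2% held a SMAD core, 35.2% a half-site, 6.75% an AP-1 site and 0.0639% a full element, so that these short matches are common. They are a description of the letters in the window.

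Other genes of the pathway differed in both directions. Of 94 further pathway genes tested, 8 were over 2-fold higher and 9 lower at 24 days, a split that became 3 higher and 9 lower with quantile normalization. These 18.1% over 2-fold, 8.51% higher and 9.57% lower, stand beside the 6.63%, 3.74% and 2.89% of all genes. Dcn (decorin, a matrix proteoglycan that binds TGF-β) was lower, with a log2 ratio of -1.92, as was Ltbp2, a latent TGF-β binding protein family member, with -1.77. Bmp3 was higher, with 2.51. Of 19 TGF-β responsive genes tested, 2 were higher, which were Ccn2 with 1.07 and Postn with 1.00, and 2 were lower, which were Snai2 with -1.28 and Fn1 with -1.16.

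**Figure D3:**
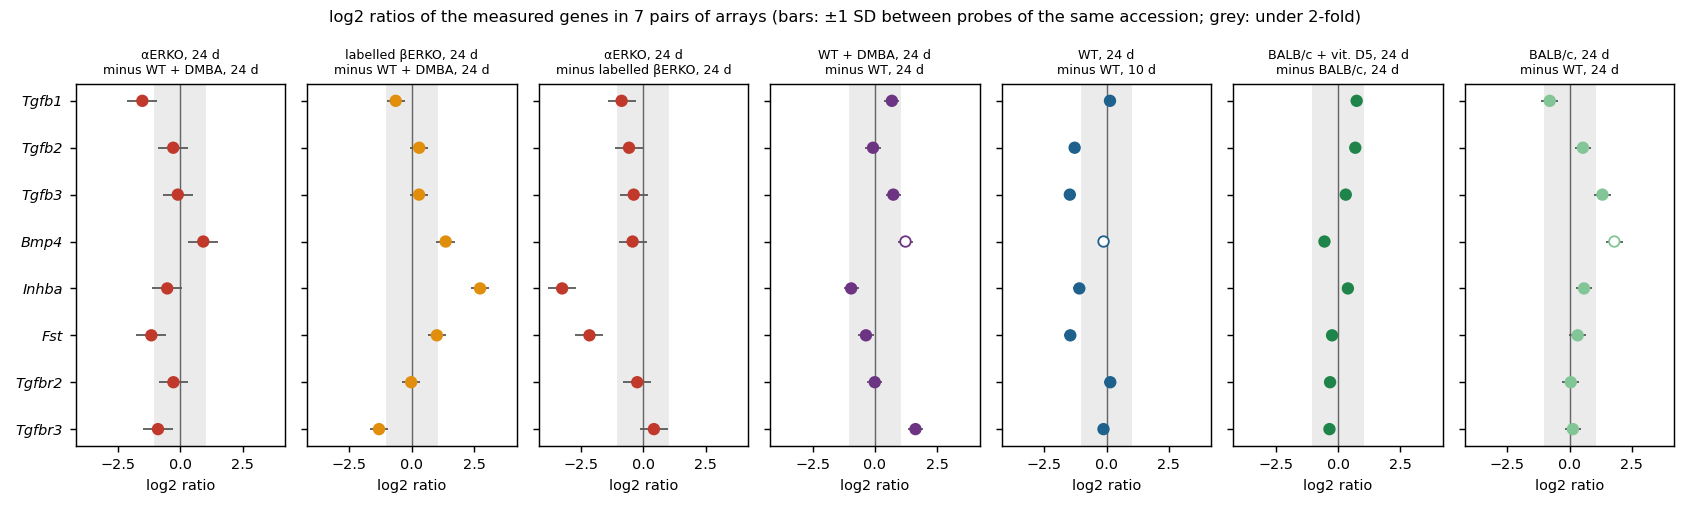
Log2 ratio of each measured gene in the 7 pairs of arrays compared, with bars of 1 SD of the log2 ratio between same-accession probes of that pair on either side, open points where a spot was near background, and grey for differences under 2-fold. In WT glands Tgfb2, Tgfb3, Inhba and Fst lay below -1 at 24 against 10 days, and Inhba lay at 2.73 on the array labelled βERKO against WT with DMBA and at -3.26 on the αERKO array against the array labelled βERKO.

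The study's own comparison was among αERKO, βERKO and WT glands, all at 24 days with DMBA in the protocol, and it asks which receptor is needed for the response to the carcinogen. These 3 comparisons share arrays, so their values are set side by side and are not independent of each other. The paper lists TGF-β signaling among its αERKO selective pathways, by enrichment among its own genes over 2-fold. The gene lists and the rule for dim spots used here are others, so the counts below do not test that result.

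In αERKO against WT glands with DMBA, Tgfb1 and Fst were over 2-fold lower, and no measured gene was over 2-fold higher with the median as the scale. Tgfb1 was 2.87-fold lower on the αERKO array, with a log2 ratio of -1.52, and Fst was 2.24-fold lower, with -1.16, where the SD for this pair of arrays was 0.60. Bmp4 had a log2 ratio of 0.92 and Tgfbr3 of -0.90, both beyond the SD but under 2-fold, and with 75th percentile scaling Bmp4 passed 2-fold, at 1.05, for a count of 3. Tgfb2, Tgfb3, Inhba and Tgfbr2, by its brighter probe, had ratios between -0.53 and -0.10, within the SD. The other Tgfbr2 probe was near background on the αERKO array, at -1.46, and good on the WT array, at -0.25. By the rule above that probe was over 2-fold lower, but the count takes each gene by its brightest probe. The count of 2 of 8 genes was near the background of the comparison, in which 22.4% of 12189 genes passed 2-fold, 9.53% higher and 12.9% lower, and the median of the 8 genes was -0.41 against -0.15 over all genes. The call for Fst did not hold with cyclic loess, at -0.96, or with normexp correction, at -0.70. The list of skeletal muscle genes was 7 of 7 good with a summed level of 1865 on the αERKO array and 4 of 7 good with 9.94 on the WT array, where Ckm, Tnnc2 and Myh4 were near background. The fibroblast list was 401 against 203 and the epithelial list 310.0 against 548, and the part of these lists in the differences was not tested.

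The further pathway genes were more often lower than higher on the αERKO array. Of 96 tested, 9 were higher (9.38%) and 26 lower (27.1%), or 14 and 25 with the 75th percentile as the scale. Of all genes, 9.53% were higher and 12.9% lower with the main scaling. Among 22 TGF-β responsive genes, 11 were lower, 1 was higher and the median log2 ratio was -1.07. Those that were lower included Cdkn1a, the p21 inhibitor of cyclin-dependent kinases, with -5.51, Timp1, an inhibitor of metalloproteinases, with -4.43, and Ccn2 (connective tissue growth factor) with -2.10. Smad4, the SMAD shared by both branches, had a log2 ratio of -2.54 and Smad1, of the BMP branch, -2.38. Gdf15, a distant member of the ligand family, had -4.72, at -0.86 on the αERKO array and 3.86 on the WT array. Ltbp4, which holds latent TGF-β in the matrix, had the largest difference the other way among those good on both arrays, with 5.59. The collagen genes Col1a1, Col1a2 and Col3a1, which belong to the responsive list and the fibroblast list alike, were not among those lower.

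On the array labelled βERKO against WT with DMBA, 3 of the 8 genes were over 2-fold higher and 1 was lower, where 11% of 12077 genes passed 2-fold, 5.75% higher and 5.27% lower. Inhba was 6.64-fold higher, with a log2 ratio of 2.73, far beyond the SD of 0.37. Bmp4 was 2.56-fold higher, with 1.35. Fst was at the threshold itself, 2.00-fold higher with 1.00, and fell short of it with quantile, 75th percentile or cyclic loess scaling, with normexp correction and with the deposited normalized intensities. Tgfbr3 was 2.49-fold lower, with -1.32. Tgfb1 had a log2 ratio of -0.65, also beyond the SD, and Tgfb2, Tgfb3 and Tgfbr2 were within it. With normexp correction, Inhba alone remained over 2-fold, at 1.96, and Inhba alone passed 3-fold. The median of the 8 genes was 0.29 against 0.15 over all genes.

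These directions rest on an array whose Esr2 signal did not bear out its label. The fibroblast list, with 6 of 6 genes good on both arrays, had a summed level of 65.0 there and 203 in WT glands with DMBA, the epithelial list was at 761 and 548, and the part of either list in the differences was not tested. Of 95 further pathway genes, 10 were higher (10.5%) and 12 lower (12.6%), beside 5.75% and 5.27% of all genes. Gdf15 was higher, with a log2 ratio of 3.17 and its highest level of the 7 arrays, 7.03. Bmp2, a further BMP ligand gene, was higher with 1.33. Col3a1 was lower with -2.53, and so were Nrros, which tethers latent TGF-β on myeloid cells, with -2.33, and Fbn1, the fibrillin that anchors latent TGF-β complexes, with -1.59.

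When αERKO was set against the array labelled βERKO, Inhba and Fst had the largest differences of the 8 genes. Inhba was 9.56-fold lower on the αERKO array, with a log2 ratio of -3.26, and Fst 4.48-fold lower, with -2.16, where the SD was 0.56. Tgfb1, with -0.87, and Tgfb2, with -0.58, were lower by more than the SD but under 2-fold, Tgfb2 not with the other 3 scalings and Tgfb1 not with cyclic loess, and Tgfb3, Bmp4, Tgfbr2 and Tgfbr3 were within it, Tgfbr3 not with the 75th percentile, at 0.60. The other Tgfbr2 probe, which the count does not use, was near background on the αERKO array, at -1.46. It was good on the array labelled βERKO, at 0.07, and so was over 2-fold lower on the αERKO array by the rule above. No gene of the 8 was over 2-fold higher. The count of 2 of 8 was again near the background, as 28.4% of 12006 genes passed 2-fold here, 10.3% higher and 18.1% lower, and the median of the 8 genes was -0.51 against -0.30 over all genes. Both calls held under every alternative tried, including 3-fold. Skeletal muscle genes were at 1865 on the αERKO array and 50.3, with Ckm and Myh4 near background, on the array labelled βERKO, the fibroblast list, with 6 of 6 genes good on both, was at 401 and 65.0, and the epithelial list was at 310.0 and 761. The part of these lists was not tested. Of 94 further pathway genes, 16 were higher (17%) and 25 lower (26.6%) on the αERKO array. Gdf15 had a log2 ratio of -7.89. Of 21 responsive genes, 8 were lower, among them Timp1 with -3.90, Ccn1 with -2.81 and Ccn2 with -2.75, and 3 were higher, the collagen genes Col3a1 with 3.43, Col1a2 with 1.69 and Col1a1 with 1.52, which the fibroblast list also holds. Hjv, a BMP co-receptor known from skeletal muscle and liver, had 6.25, and Mstn, which encodes the muscle growth inhibitor myostatin, was good on the αERKO array alone, at 5.01.

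In WT glands at 24 days, DMBA was accompanied by a higher Tgfbr3. Its level was 3.08-fold higher with DMBA than without, a log2 ratio of 1.62 where the SD was 0.30. Bmp4 was good with DMBA and near background without it, and was at least 1.92-fold higher, short of the threshold. Tgfb1, with a log2 ratio of 0.68, and Tgfb3, with 0.73, were higher with DMBA by more than the SD. Inhba, with -0.95, and Fst, with -0.36, were lower by more than the SD, Fst not with cyclic loess, whereas Tgfb2, with -0.08, and Tgfbr2, with -0.01, were within it. Only Tgfbr3 of the 8 genes was thus over 2-fold, where 16.3% of 12150 genes were, 9.73% higher and 6.61% lower. The median of the 8 genes was -0.01 among those good on both arrays, against -0.16 over all genes. Both arrays also serve in other comparisons here, so these values are not independent of those. With quantile normalization Bmp4 joined Tgfbr3, with cyclic loess Tgfb3 at 1.04 and Bmp4 did, and with normexp correction the Tgfbr3 ratio was 0.84 and no gene passed 2-fold.

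Genes that TGF-β is known to act on were more often higher than lower with DMBA. Of 22 responsive genes, 11 were over 2-fold higher with DMBA and 1, Bhlhe40 with -1.53, was lower, although their median among those good on both arrays was 0.07. Col3a1 had a log2 ratio of 4.56, Fn1 (fibronectin) 3.04, Timp1 2.90 and Tnc (tenascin C) 2.50. Dcn, with 4.26, and Bgn (biglycan), with 2.93, both proteoglycans that bind TGF-β, were higher too. So were 3 genes on the list for latent TGF-β storage and activation. They were Fbn1 with 3.99, Nrros with 3.07 and Ltbp2, listed as a latent TGF-β binding protein family member, with 2.30. In all, 24 of 97 further pathway genes were higher (24.7%) and 4 lower (4.12%), beside 9.73% and 6.61% of all genes. The fibroblast list, which shares Col1a1, Col1a2, Col3a1 and Dcn with these lists, moved from a summed level of 12.4, with Col1a1 and Col1a2 near background, to 203 with 6 of 6 genes good. The adipocyte list was 1158 without and 1763 with DMBA, the endothelial list 2.86 and 18.4, with Cdh5 near background on both arrays, and the epithelial list 974 and 548. The part of these lists in the differences of Tgfbr3, Inhba and the responsive genes was not tested.

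**Figure D4:**
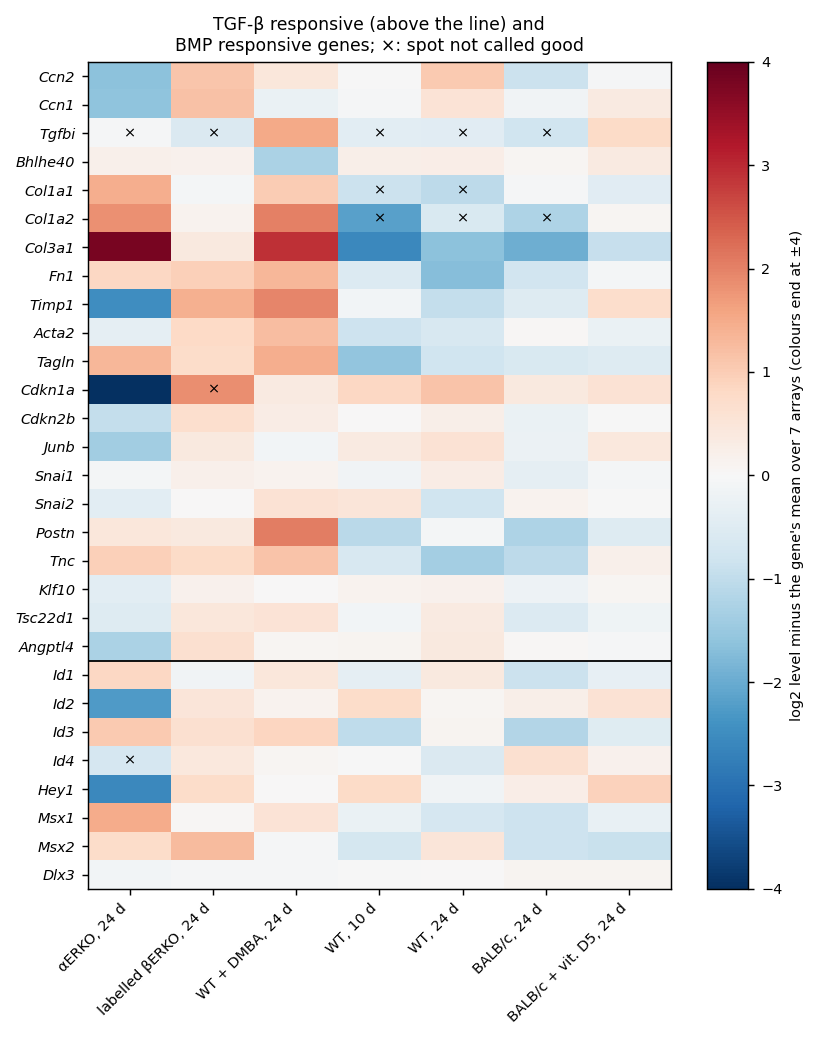
Log2 level minus the gene's mean over the 7 arrays for 21 TGF-β responsive genes (above the line) and 8 BMP responsive genes (below it), by array, with colours that end at 4 on either side and crosses for spots not called good. Of the 21 genes, 8 were lowest on the αERKO array and 10 were highest on the WT array with DMBA.

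The BALB/c glands at 24 days differed from WT C57 glands at 24 days without DMBA in Tgfb3 and Bmp4. The labels do not say whether the BALB/c cultures had DMBA, so strain and DMBA cannot be told apart. The WT array is also 1 side of the time and DMBA comparisons, so these values are not independent of those. Tgfb3, at 4.67, Dcn, at 1.19, and Ltbp2, at 0.46, had their lowest levels of the 7 arrays on the WT array. Tgfb3 was 2.49-fold higher in BALB/c glands, with a log2 ratio of 1.32 where the SD was 0.33, and with quantile normalization its ratio was 1.66. Bmp4 was good in BALB/c glands and near background in WT glands, and was at least 2.85-fold higher, a call that did not hold with normexp correction. Tgfb1, with -0.80, was lower in BALB/c glands by more than the SD, and Inhba, with 0.58, and Tgfb2, with 0.53, were higher by more than the SD. Fst, Tgfbr3 and Tgfbr2 by its brighter probe were within it. However, Fst, with 0.32, was at 0.50 to 0.54 and beyond this SD with quantile, 75th percentile and cyclic loess scaling. Tgfbr3 was at 0.35 with the 75th percentile. The other Tgfbr2 probe, good on both arrays, was lower in BALB/c glands by more than the SD, at -0.90 against -0.43. The 2 of 8 genes over 2-fold compare with 15.1% of 12113 genes, 4.33% higher and 10.7% lower, and the median of the 8 was 0.32 among those good on both arrays against -0.33 over all genes. The adipocyte list was at 429 in BALB/c glands, with Lep near background, and 1158 in WT glands, and its part was not tested. Of 96 further pathway genes 8 were higher (8.33%) and 14 lower (14.6%), or 11 and 10 with quantile normalization. Dcn was higher with 2.28 and Ltbp2 with 1.91, and Bmp3 was lower with -2.55 and Ccn2 with -1.90.

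Vitamin D5, a vitamin D analog, came with smaller differences in BALB/c glands. None of the 8 genes was over 2-fold, where 5.81% of 12177 genes were, 2.83% higher and 2.97% lower. Tgfb1 was 1.68-fold higher with vitamin D5, with a log2 ratio of 0.75, and Tgfb2 was 1.61-fold higher, with 0.69. Both exceeded the SD of 0.23, and so did Inhba with 0.39, Tgfb3 with 0.31, Fst with -0.24, Tgfbr2 with -0.32, Tgfbr3 with -0.34 and Bmp4 with -0.54. The 4 genes with positive ratios were all ligand genes, and the 4 with negative ratios were Tgfbr3, Tgfbr2 by its brighter probe, Fst and Bmp4. These signs held with quantile, 75th percentile and cyclic loess scaling, under which Tgfb3 came within the SD. The other Tgfbr2 probe, good on both arrays, went the other way, from -0.90 without vitamin D5 to -0.51 with it. The median of the 8 genes was 0.03, against 0.16 over all genes. Of 97 further pathway genes, 8 were over 2-fold higher (8.25%) and 2 lower (2.06%). Chrdl2, a secreted BMP antagonist, was higher with 2.08 and Bgn with 1.63, and of 22 responsive genes 4 were higher, among them Tnc with 1.27, Timp1 with 1.21 and Col3a1 with 1.04. The fibroblast list was 23.6 without vitamin D5, with Col1a2 near background, and 42.4 with it, and its part in these differences was not tested.

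Genes with patterns most like those of the measured genes were taken as the 3 with the highest Pearson r over the 7 arrays, among genes good on all 7 arrays whose SD was at least 0.5 on the log2 scale (3022 candidates, or 3023 for Tgfbr2). For Inhba these were Pof1b with r of 0.99, Mal with 0.97 and Gsta3 with 0.96. For Fst they were Hmgcll1 with 0.98, Pabpc1 with 0.95 and Wdr35 with 0.95. The order of the arrays by Pof1b level was that of Inhba, and by Hmgcll1 level that of Fst, with a Spearman rho of 1 in both. For Tgfb1 they were Fgfr1 with 0.98, Ube2h with 0.96 and Smad1 with 0.96. For Tgfb2 they were Slc5a1 with 0.98, Hsd17b11 with 0.97 and Sprr2h with 0.97, and for Tgfb3 Pclaf with 0.98, Gsap with 0.95 and Alpl with 0.95. Smad1 is the sole gene of the pathway list among them. For Tgfbr3 they were Tspyl4 with 0.97, Pcdha4 with 0.96 and Il17b with 0.95. Tgfbr2 varied little, and its nearest genes, Ptgds with 0.95, Stac2 with 0.83 and Creg1 with 0.82, were less alike. These genes were picked as the highest of many candidates over 7 arrays, and the values of r are descriptions only.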

How the data were processed

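RNA was hybridized to 7 CodeLink arrays, 1 per group, with RNA of 5 mice pooled for 3 groups. Per the file headers, the deposited intensity is a spot's mean signal minus the local background, and the authors' scanner software flagged each spot as good or not. The authors' normalized intensity was an alternative, and their series table, whose rows pair with no probe, was not used. Each of the 34967 gene probes was scaled by its array's median over them, raised to the lowest positive value where at or below 0, and log2 taken. Median intensity was 39.1 to 53.0 over a local background of 80 to 83, so that dim probes are imprecise. RefSeq named 14763 of 15553 probes with an accession, and a gene was taken by its brightest probe. Genes, lists and comparisons were chosen with earlier results of these data known. Named genes are the 10, up to 4 per pathway sublist, direction and comparison with the largest change over 2-fold among spots good on both arrays, markers beside a result, and the 3 most alike per gene; Mstn and the collagen genes named as not lower were chosen after their values were seen. Some genes that the rule names are not reported here, though list counts include them. Python 3.11.15, numpy 2.4.6, pandas 2.3.3, R 4.3.3 and limma 3.58.1 were used, and the counting was tested on simulated data. Alternatives were other scalings (quantile, 75th percentile, cyclic loess), normexp correction (offset 50), the authors' normalized intensities, other rules for dim spots, thresholds of 3-fold and 1.5-fold, and the mean of a gene's probes.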

Additional observations from a re-analysis of the deposited data

How the results depend on the processing

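No paired analysis was possible because each group was 1 array, and no array could be left out. Of 70 alternative counts for the 8 genes, 54 stayed within 1.5 times the main count and 16 moved, and likewise 54 and 16 of 70 for the pathway genes. Of 336 alternative log2 ratios of single genes, 17 moved by more than the SD between same-accession probes, and no called ratio changed sign. Counts for the 8 genes moved as follows. αERKO against WT with DMBA gave 2, but 1 with cyclic loess or normexp, 0 at 3-fold and 4 at 1.5-fold. The array labelled βERKO against WT with DMBA gave 4, but 1 with normexp or at 3-fold. DMBA against none gave 1, but 2 with quantile normalization or no bound for dim spots, 3 with cyclic loess, 0 with normexp and 5 at 1.5-fold. For 24 against 10 days the count was 4, but 0 at 3-fold. BALB/c against WT gave 2, but 1 with normexp or with spots good on both arrays only, and 0 at 3-fold. Vitamin D5 gave 0, but 2 at 1.5-fold. Counts of pathway genes with normexp were 12 in place of 22 for the array labelled βERKO against WT with DMBA, 7 in place of 17 for time, 4 in place of 10 for vitamin D5 and 7 in place of 22 for BALB/c against WT. With spots good on both arrays only, vitamin D5 gave 6. At 3-fold they were 14 in place of 35 for αERKO against WT with DMBA, 7 for the array labelled βERKO against WT with DMBA, 26 in place of 41 for αERKO against the array labelled βERKO, 18 in place of 28 for DMBA, 6 for time, 3 for vitamin D5 and 8 for BALB/c against WT. At 1.5-fold they were 50 for DMBA, 35 for time, 23 for vitamin D5 and 44 for BALB/c against WT. A higher or lower threshold calls fewer or more genes by construction, normexp with its offset draws ratios of dim probes toward 0, and the cause of the other moves was not tested.

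The median log2 ratio of all genes tested lay between -0.31, for BALB/c against WT, and 0.16 with the main scaling, and between -0.09 and 0.09 with cyclic loess. Among all genes over 2-fold, the share that was higher went from 42.5% to 52.5% with 75th percentile scaling for αERKO against WT with DMBA, from 28.7% to 51.9% for BALB/c against WT and from 48.8% to 35% for vitamin D5. With cyclic loess it went from 36.3% to 49.6% for αERKO against the array labelled βERKO and from 59.5% to 71% for DMBA. The number of arrays, and signals close to the local background for Bmp4, Tgfbr3 and the second Tgfbr2 probe, limit the precision of these values. So do dim spots of Inhba and Fst on the αERKO array, at -0.07 and 0.06, and of Inhba on the WT array with DMBA, at 0.46. The largest ratios of Inhba and Fst rest on these spots.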
